A study of Mus musculus with 18 samples.

Results

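The 10 genes described here encode proteins of the 2 routes by which cells show peptides to T cells, and they are H2-Aa, H2-Ab1, H2-Eb1, Cd74 and H2-DMa of the MHC class II route and H2-K1, H2-D1, B2m, Tap1 and Tap2 of the class I route. They were picked out by symbol from the 35560 genes that the tables of both sequencing batches share, and were chosen with earlier results of these data known. Each symbol was found once in each table, and all 10 had enough counts to be among the 14623 genes tested.

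The libraries came from hearts of male C57BL/6 wild-type mice, whose age the labels do not state. Every mouse, controls included, was injected under the skin each day with isoproterenol (ISO), a beta-adrenergic agonist that stresses the heart, at 2.5 mg/kg/day for 21 days. The ISO group was gavaged with water, and the ISO+100 nm PS and ISO+1 µm PS groups were gavaged for 21 days with polystyrene particles (PS, labelled as nanoplastics) of those sizes at 50 mg/kg/day. Each group had 6 libraries, and no group without ISO is analysed here, so levels cannot be set against an unstressed heart. Novogene (batch 1) prepared 3, 5 and 4 of the ISO, 100 nm PS and 1 µm PS libraries, and Majorbio (batch 2) prepared 3, 1 and 2.

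MHC class I molecules sit on nearly all nucleated cells and show peptides made inside the cell, which the proteasome cuts and the TAP transporter pumps into the endoplasmic reticulum. Class II molecules are made mainly by macrophages, dendritic cells and B cells and show peptides from material taken up from outside. Interferon gamma induces both routes, through IRF1 among others and then through the regulators NLRC5 for class I and CIITA for class II. In the heart, resident macrophages and dendritic cells carry most class II, whereas endothelial cells are a large source of class I.

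The promoters of these genes are shown because the genes of each route moved together across libraries, as described further on. RefSeq promoter windows (GRCm38.p6, 250 bases before to 50 bases after the start) were matched for 7 of the 10 genes. They numbered 9 in all, and none was matched for Cd74, H2-Ab1 or Tap2, which are named only. H2-DMa and Tap1 were matched, but their sequences are not printed here. The study's own tables were made on GRCm39, so these coordinates belong to the RefSeq windows and not to the counts. The 160 bases upstream of the start are printed 5′ to 3′ in the direction of transcription, and capitals mark matches to 4 short motifs searched on both strands: ATTGG (the Y box core), AGCAAC (a stretch of the X box), GAAANNGAA (the core of the interferon-stimulated response element) and TTCNNNGAA (the interferon gamma-activated element called GAS).
H2-Aa (chr17:34287824-34287983, minus strand): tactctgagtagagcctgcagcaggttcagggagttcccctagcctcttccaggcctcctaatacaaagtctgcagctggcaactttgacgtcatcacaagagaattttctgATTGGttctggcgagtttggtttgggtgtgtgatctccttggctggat
H2-Eb1 (chr17:34305707-34305866, plus strand): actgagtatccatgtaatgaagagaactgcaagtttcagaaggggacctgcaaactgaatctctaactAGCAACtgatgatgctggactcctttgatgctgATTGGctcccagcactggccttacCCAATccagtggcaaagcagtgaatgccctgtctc
H2-K1 (chr17:34000334-34000493, minus strand): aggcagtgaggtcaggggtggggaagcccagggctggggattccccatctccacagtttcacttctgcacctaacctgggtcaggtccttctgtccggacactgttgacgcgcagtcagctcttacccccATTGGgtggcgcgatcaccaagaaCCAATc
H2-D1 (chr17:35262934-35263093, plus strand): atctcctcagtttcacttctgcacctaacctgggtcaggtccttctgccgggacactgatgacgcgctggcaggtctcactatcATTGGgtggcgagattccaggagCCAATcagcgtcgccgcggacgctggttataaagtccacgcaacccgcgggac
B2m (chr2:122147527-122147686, plus strand): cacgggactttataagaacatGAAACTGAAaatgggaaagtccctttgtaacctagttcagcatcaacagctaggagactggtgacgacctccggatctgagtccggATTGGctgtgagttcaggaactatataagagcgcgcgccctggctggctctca

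ATTGG was found in at least 1 window of 7 of 7 matched genes, against 37.4% of all 32851 windows of that length in the table. H2-Eb1, H2-K1 and H2-D1 each held it on both strands (CCAAT in the printed strand is ATTGG on the other). H2-Aa held it 48 bases before the start and B2m 53 bases before it. For Tap1 the match lay 222 bases before the start, and for H2-DMa it lay in 1 of 2 windows. Both matches lay upstream of the stretch printed for the other matched genes. That stretch held no motif match in Tap1 or in either window of H2-DMa. AGCAAC was found in 1 of the 9 windows, that of H2-Eb1, against 14.8% of all windows. GAAANNGAA was found in 1 window, that of B2m at 139 bases before the start, against 8.6% of all windows, and TTCNNNGAA in 0 windows, against 8.3%. The windows of H2-K1 and H2-D1 were 91.2% identical over 239 aligned bases, whereas the other pairs of genes ran from 68.4% to 76.4%. These matches describe letters in a window and not binding.

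Library totals ran from 14032257 to 22600570 counts. ISO replicates 1 and 2 stood apart from the other libraries. In ISO replicate 2, 13152 genes had a count, whereas the rest of that group had 16562 to 17913. In it 4 of 7 B cell markers, 3 of 4 dendritic cell markers and 3 of 15 further class II genes were at 0, against at most 0, 1 and 0 in each of the other 17 libraries. Mitochondrial protein-coding genes took 42.4% of the counts of ISO replicate 1, against 14.9% to 24.1% in the other ISO libraries. Results that ISO replicate 2 moves are given without it too. Cardiac myocyte markers summed to between 39600 and 125000 CPM (counts scaled to library size and TMM factor) in all 18 libraries, and none of the 10 was at 0 in any of them.

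Of the 10 genes 1 differed between particle-exposed and ISO hearts. Tap2 rose when both PS groups were averaged against ISO (1 of 10 called, against 17.7% of all genes tested), and 0 fell. At 100 nm alone 0 of 10 passed (9.57% of all genes tested), and at 1 µm alone 0 of 10 passed (7.39%). Of all genes tested, 6.8% were called higher and 10.9% lower for the average, 3.88% and 5.69% at 100 nm and 2.89% and 4.5% at 1 µm. At an unadjusted p under 0.05 the numbers among the 10 were 4 for the average, 2 at 100 nm and 2 at 1 µm, against 34.1%, 28.6% and 27% of all genes tested. DESeq2 called 2, 2 and 1, against 25.7%, 17.8% and 15.9%. The shares among the 10 genes were thus near or below those of all genes. The median log2 fold change of the 10 genes was -0.06 for the average, -0.19 at 100 nm and 0.01 at 1 µm, beside -0.01, -0.02 and 0.00 over all genes tested. Both particle sizes were compared with the same ISO libraries. In whole heart tissue, a change in the number of cells of a type and in the RNA of each cell cannot be told apart. DESeq2 gave no adjusted p for Tap1. Unless another tool is named, the adjusted p of a gene comes from the quasi-likelihood test of edgeR, adjusted by Benjamini-Hochberg over all genes tested, and errors after a log2 fold change are standard errors (SE).

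**Figure D1:**
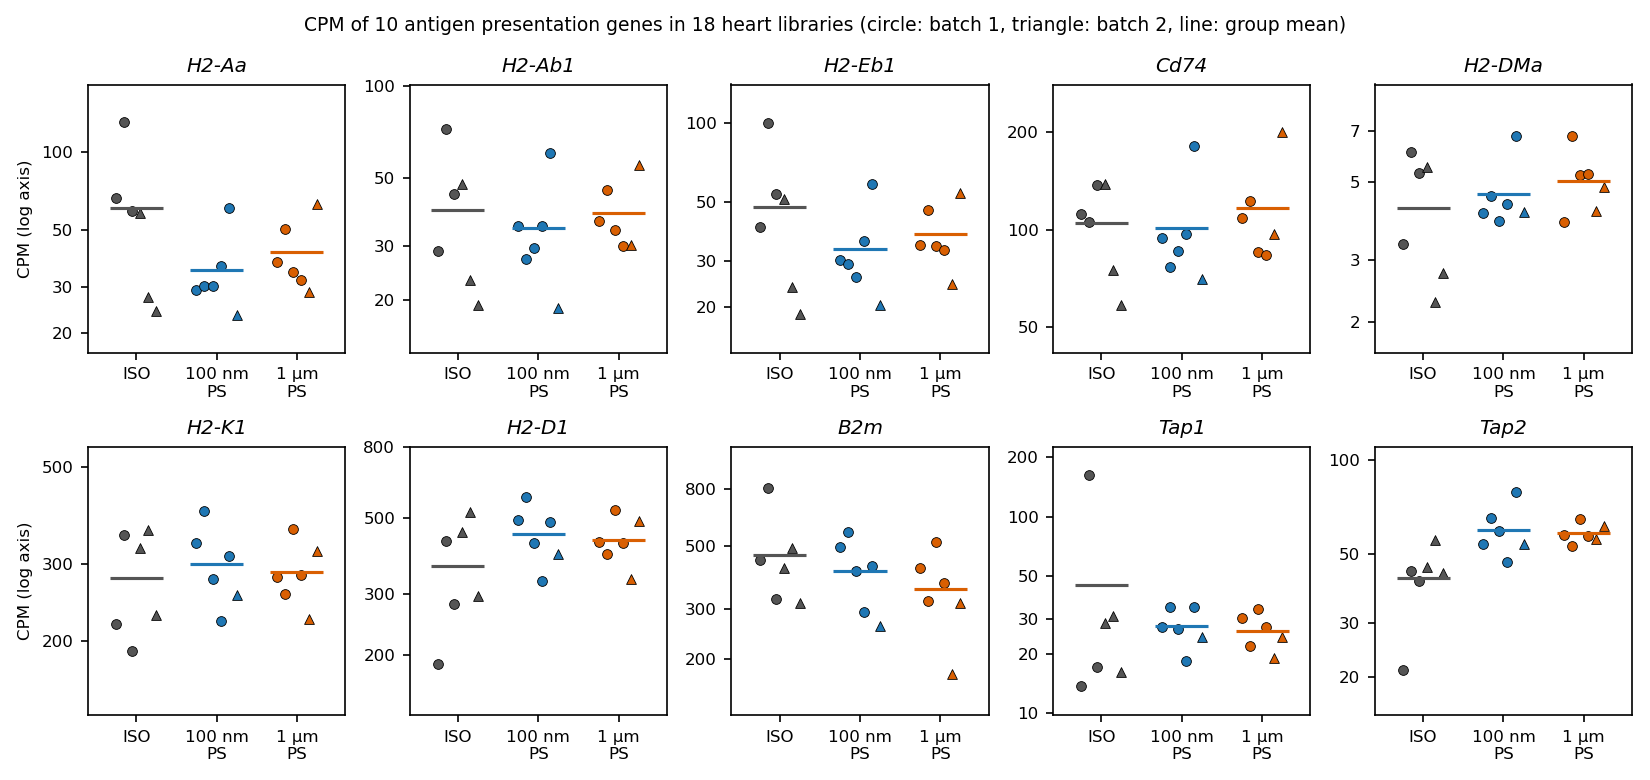
CPM on a log axis for each of the 10 genes in the 18 libraries, by group, with circles for batch 1, triangles for batch 2 and a line at the group mean (n = 6). Tap2 sits at 46.9 CPM or more in all PS libraries and between 21.2 and 55.2 CPM in the ISO libraries, and 1 ISO library lies far above the rest for Tap1, at 162 CPM.

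Per kilobase of the longest annotated transcript, B2m was the most abundant of the 10 genes and H2-DMa the least. In ISO hearts the mean level was 544 ± 208 CPM per kb (SD, n = 6) for B2m, the light chain shared by all class I molecules. The class I heavy chains H2-D1 (172 ± 59.8 CPM per kb) and H2-K1 (149 ± 39.6) came next, apart by less than their summed SDs. Cd74, the invariant chain that fills the class II groove during transport, stood at 74.2 ± 23.1 CPM per kb, above the class II chains H2-Ab1 (32.5 ± 16.3), H2-Eb1 (28.8 ± 17.5) and H2-Aa (18.9 ± 11.9). Each of those steps down, from B2m to H2-D1, from H2-K1 to Cd74 and from Cd74 to H2-Ab1, was larger than the SDs of its 2 genes added together in all 3 groups. In ISO the 3 class II chains could not be ordered by summed SDs, nor could H2-Aa, Tap2 (12.1 ± 3.24) and Tap1 (11.5 ± 14.8). Summed SDs leave out that the genes were read in the same libraries, and an order within each library was not tested. In the PS groups H2-Ab1 (28.4 ± 11.7 at 100 nm and 31.9 ± 8.23 at 1 µm) stood above H2-Aa (10.9 ± 4.06 and 12.7 ± 4.05) by more than their summed SDs. That order rested on the transcript lengths used, 3223 bases for H2-Aa and 1212 for H2-Ab1. Before division by length the means of H2-Ab1 and H2-Aa were 34.4 and 35.1 CPM at 100 nm, and 38.7 and 41 CPM at 1 µm. Per kilobase, Tap2 (17.3 ± 3.25 and 16.9 ± 1.2) stood above Tap1 (7.1 ± 1.58 and 6.71 ± 1.41) by more than their summed SDs. H2-DMa, a chain of the peptide editor of class II, was at 2.1 ± 0.807 CPM per kb.

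H2-Aa, the alpha chain of I-A, had the largest negative fold change of the class II genes, and it did not pass. Its level ran from 24.3 through a median of 58.5 to 130 CPM in ISO, from 23.5 through 30.5 to 60.5 CPM at 100 nm and from 28.8 through 36 to 62.7 CPM at 1 µm. The groups overlapped, yet 0 of 6 libraries at 100 nm and 1 of 6 at 1 µm lay above the ISO mean of their own batch. The log2 fold change was -0.91 (SE 0.32, adjusted p = 0.0788) at 100 nm, -0.53 (SE 0.32, adjusted p = 0.287) at 1 µm and -0.72 (SE 0.27, adjusted p = 0.0678) for the average. Within batch 1 the average was -1.16 (adjusted p = 0.0189) and within batch 2 it was -0.16 (adjusted p = 0.851). The difference between batches was 1.15 (SE 0.53, adjusted p = 0.269). Without ISO replicate 2, which has the highest value, the average was -0.40 (adjusted p = 0.272). DESeq2 called the average, and with edgeR it passed when any of ISO replicate 5, ISO replicate 6, 100 nm replicate 5 or 1 µm replicate 6 was left out.

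Neither beta chain passed in any comparison. H2-Eb1, the beta chain of I-E, ran from 18.8 through 45.8 to 100 CPM in ISO, from 20.4 through 29.7 to 58.8 CPM at 100 nm and from 24.5 through 34.3 to 54.2 CPM at 1 µm. C57BL/6 mice are known to lack I-E on the cell surface because the gene of its alpha chain is defective, while the beta chain is transcribed. The log2 fold change of H2-Eb1 was -0.67 (SE 0.32, adjusted p = 0.177) at 100 nm and -0.34 (adjusted p = 0.508) at 1 µm, and without ISO replicate 2 it was -0.33 and -0.06. H2-Ab1, the beta chain of I-A, ran from 19.3 through 36.8 to 72.3 CPM in ISO, from 18.9 through 32.4 to 60.6 CPM at 100 nm and from 30.1 through 35.1 to 55.3 CPM at 1 µm. Its log2 fold change was -0.32 (adjusted p = 0.513) at 100 nm and -0.03 (adjusted p = 0.954) at 1 µm, and without ISO replicate 2 it was -0.04 and 0.19. For both beta chains all groups overlapped.

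Cd74 and H2-DMa, which serve the loading of class II, passed in no comparison. Cd74 ran from 58.4 through 109 to 139 CPM in ISO, from 70.6 through 90.5 to 182 CPM at 100 nm and from 83.9 through 103 to 201 CPM at 1 µm. Its log2 fold change for the average was 0.05, with a 95% interval from -0.46 to 0.55 (adjusted p = 0.912). The highest values belonged to 100 nm replicate 5 and 1 µm replicate 6, and the remaining PS libraries were at 123 CPM or below. H2-DMa ran from 2.28 through 4.32 to 6.1 CPM in ISO, from 3.87 through 4.22 to 6.76 CPM at 100 nm and from 3.86 through 5.04 to 6.79 CPM at 1 µm. Its log2 fold change was 0.13, with an interval from -0.34 to 0.59 (adjusted p = 0.721), and it was 0.23 without ISO replicate 2. Under a correction of each library for the GC content of genes, the averages of Cd74 and H2-DMa turned negative (-0.44 and -0.30). The median over all genes tested was then -0.13.

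Neither class I heavy chain passed in any comparison. H2-K1 ran from 190 through 278 to 359 CPM in ISO, from 223 through 295 to 397 CPM at 100 nm and from 225 through 282 to 360 CPM at 1 µm. Its log2 fold change for the average was 0.08, with a 95% interval from -0.30 to 0.46 (adjusted p = 0.784), and it was 0.18 without ISO replicate 2. H2-D1 ran from 188 through 363 to 520 CPM in ISO, from 328 through 453 to 572 CPM at 100 nm and from 333 through 423 to 527 CPM at 1 µm. Its log2 fold change was 0.32 (SE 0.21, adjusted p = 0.28), at 0.59 within batch 1 and -0.08 within batch 2. The GC correction turned both averages negative (-0.31 for H2-K1 and -0.14 for H2-D1), beside a median of -0.13 over all genes tested. All groups overlapped for both genes. The heavy chains are near-identical in sequence to each other and to the H2-Q genes, so the authors' counting could split their reads and their values are uncertain. H2-Q6 was at 0.0772 to 2.61 CPM in batch 1 and 27.4 to 51.7 CPM in batch 2.

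B2m ran from 315 through 435 to 805 CPM in ISO, from 262 through 418 to 562 CPM at 100 nm and from 177 through 346 to 520 CPM at 1 µm, with overlap. Its log2 fold change was -0.40 (SE 0.25, adjusted p = 0.287) at 100 nm and -0.53 (SE 0.24, adjusted p = 0.161) at 1 µm. The average was -0.47 (SE 0.21, adjusted p = 0.123), at -0.31 in batch 1 and -0.69 in batch 2. ISO replicate 2 held the highest value, and without it the average was -0.29 (adjusted p = 0.365), whereas without ISO replicate 3 it was -0.62 and passed (adjusted p = 0.033).

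Tap2, a subunit of the peptide transporter, passed for the average of both particle sizes and at neither size alone. It ran from 21.2 through 43.7 to 55.2 CPM in ISO, from 46.9 through 56.4 to 78.8 CPM at 100 nm and from 52.9 through 57.2 to 64.4 CPM at 1 µm. All 6 libraries at 100 nm and all 6 at 1 µm lay above the ISO mean of their batch, and 3 and 5 of them lay above every ISO library. The log2 fold change was 0.58 (SE 0.19, adjusted p = 0.0605) at 100 nm, 0.52 (SE 0.18, adjusted p = 0.0802) at 1 µm and 0.55 (SE 0.17, adjusted p = 0.0297) for the average, a 1.46-fold rise with a 95% log2 interval from 0.20 to 0.90. The average was 0.75 (adjusted p = 0.0467) within batch 1 and 0.22 (adjusted p = 0.58) within batch 2, a difference that did not pass (-0.49, SE 0.31, adjusted p = 0.437).

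The Tap2 call held when any 1 library was left out, with values from 0.38 to 0.62. It was lost without ISO replicates 1 and 2 together (0.36, adjusted p = 0.112), and under the GC correction (0.06, adjusted p = 0.826). It was also lost with limma voom, without the batch term and in batch 2 alone, and 7 of 32 alternatives ended it in all. The transcript of Tap2 has a GC content of 56.9%. The correction moved the median over all genes tested to -0.13.

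Some markers of other heart cells moved beside Tap2. For the average of both PS groups, 3 of 10 endothelial markers rose and 0 fell, and 4 of 9 fibroblast markers rose and 0 fell, against 6.8% of all genes called higher. Without ISO replicate 2 the numbers that rose were 3 and 4, and without ISO replicates 1 and 2 they were 2 and 3. Under the GC correction, as for Tap2, they were 0 and 0. Of all genes tested, 1127 of 14808, 542 of 15028 and 166 of 14623 were called higher in these fits, so calls also became few over all genes under the GC correction. The endothelial markers summed to between 1070 and 2400 CPM in ISO, 2070 and 3190 CPM at 100 nm and 2140 and 3130 CPM at 1 µm, and none of the 10 was at 0 in any library. The endothelial receptor Eng rose by 0.81 (SE 0.17, adjusted p = 0.00513), and under the GC correction its value was 0.29 (adjusted p = 0.249). Fibroblast markers summed to between 2420 and 3850 CPM in ISO, 3470 and 6380 CPM at 100 nm and 3580 and 5130 CPM at 1 µm. Most of that sum was Gsn, at means of 1850, 2730 and 2570 CPM in these groups. Of 10 cardiac myocyte markers 0 rose and 1 fell, near the 10.9% of all genes tested that were called lower. The 1 that fell was Pln, the inhibitor of the sarcoplasmic calcium pump (-0.81, adjusted p = 0.00693, and -0.49 with adjusted p = 0.11 under the GC correction). Of the 10, 4 had a positive log2 fold change. Myocyte markers had a median sum of 89800 CPM in ISO, 58600 CPM at 100 nm and 62700 CPM at 1 µm, with overlap. These medians mix batches held in unequal parts. Within batch 1 the sums ran from 39600 to 85700 CPM in ISO, 47300 to 60700 CPM at 100 nm and 55800 to 65300 CPM at 1 µm. In batch 2 they ran from 94000 to 110000 CPM in ISO, and were 97500 CPM at 100 nm and 91200 and 125000 CPM at 1 µm. The part of these cells in the Tap2 result was not tested.

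Tap1, the partner of Tap2 in the transporter, did not pass, and its direction rested on 1 library. In ISO it ran from 13.7 through 23 to 162 CPM, at 100 nm from 18.5 through 27.2 to 34.7 CPM and at 1 µm from 19 through 26 to 33.9 CPM. The value of 162 CPM was that of ISO replicate 2, and the other 5 ISO libraries reached 31.3 CPM at most. The log2 fold change for the average was -0.79 (SE 0.37, adjusted p = 0.142) with that library and 0.34 (adjusted p = 0.291) without it. Under the GC correction it was -1.36 and passed (adjusted p = 0.0396).

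**Figure D2:**
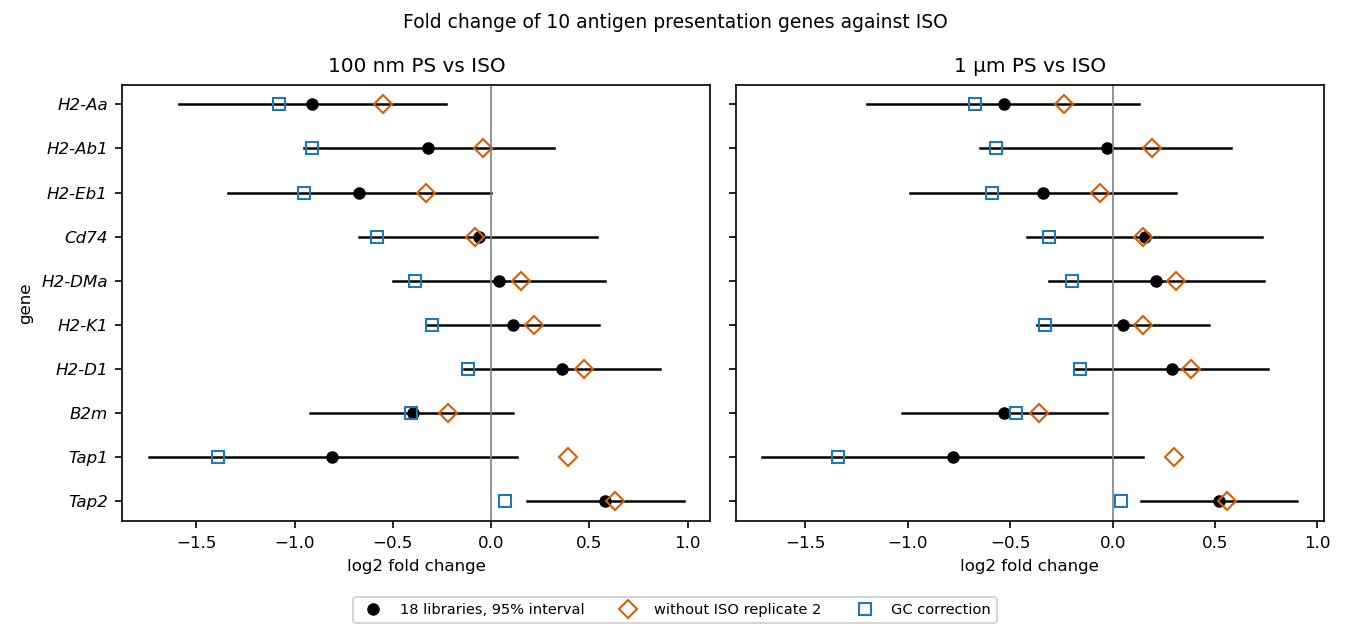
Log2 fold change against ISO of the 10 genes at 100 nm (left) and 1 µm (right), with 95% intervals from the 18 libraries, the value without ISO replicate 2 and the value after GC correction. At both sizes Tap1 crosses from negative to positive without ISO replicate 2 (0.39 and 0.30), and Tap2 moves to 0.07 and 0.04 under GC correction.

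Particle size made no difference that could be detected. Between 1 µm and 100 nm PS 0 of 10 genes passed, as did 0% of all genes tested with edgeR, where 49 of 14623 had an unadjusted p under 0.05. DESeq2 also called 0. None of the 10 genes had an unadjusted p under 0.05 in this comparison. H2-Aa differed by 0.37, with a 95% interval from -0.31 to 1.06, and Cd74 by 0.22, from -0.38 to 0.82. The interval of Tap2 ran from -0.44 to 0.31 and that of H2-K1 from -0.48 to 0.35, whereas the interval of Tap1 was wide, from -0.91 to 0.96. The difference of the PS effect between the batches passed for 0 of 10 genes, against 0.328% of all genes tested, and the largest was that of H2-Aa.

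The 10 genes fell into 2 blocks by how they varied from library to library. Group and batch means were removed from log2 CPM before the correlations were taken over the 18 libraries. The 10 pairs among the class II genes and Cd74 had Pearson r from 0.61 to 0.96 (median 0.82; Spearman rho 0.55 to 0.89). The 10 pairs among the class I and TAP genes had r from 0.49 to 0.97 (median 0.72; rho 0.62 to 0.95). Between the blocks the 25 pairs had r from -0.05 to 0.51 (median 0.22; rho -0.13 to 0.28). Without ISO replicate 2 these ranges were 0.64 to 0.96, 0.45 to 0.96 and -0.16 to 0.27, and within batch 1 they were 0.53 to 0.97, 0.40 to 0.98 and -0.36 to 0.70. For batch 2 alone no value is given, since its 100 nm group has 1 library and the other 5 are fewer than the 6 asked of a correlation here.

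**Figure D3:**
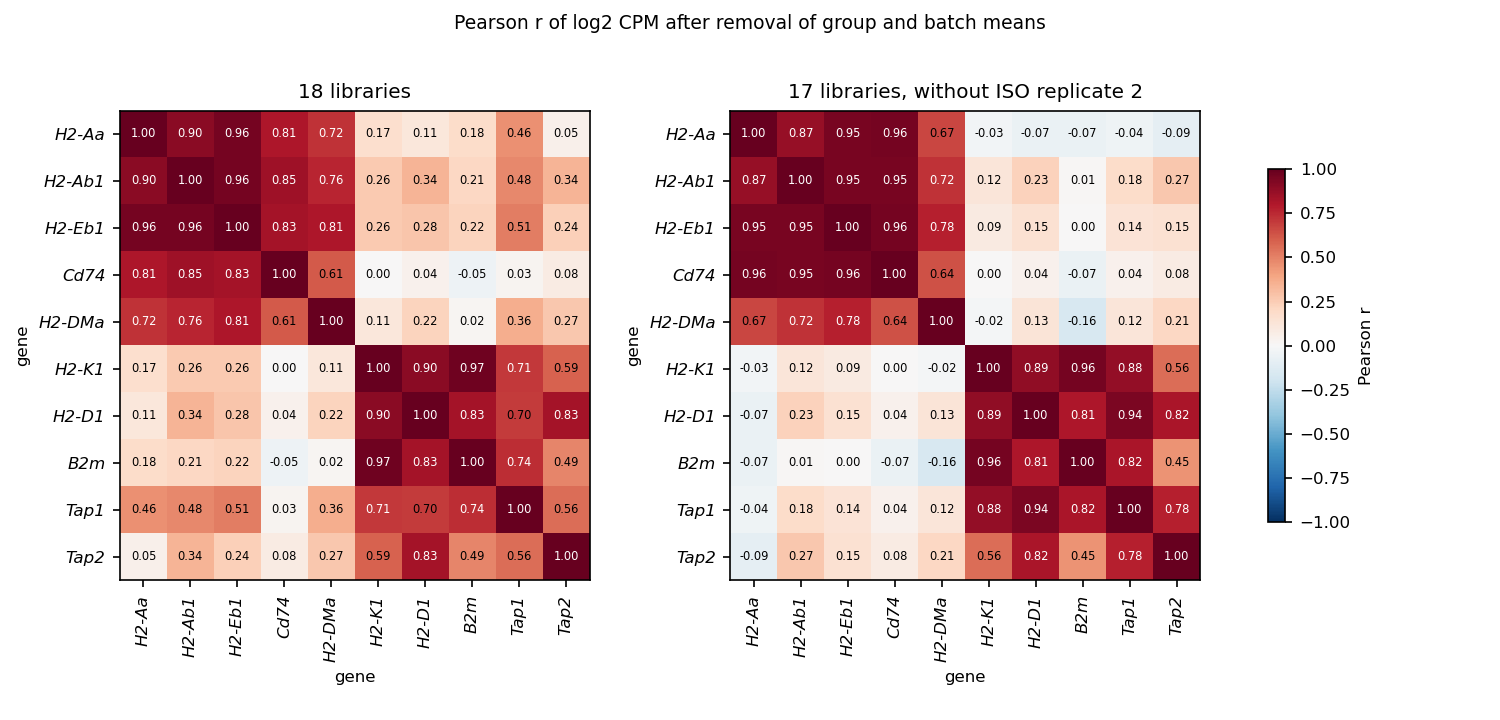
Pearson r between the 10 genes on log2 CPM after group and batch means were removed, over 18 libraries (left) and without ISO replicate 2 (right), with the colour from blue at -1 to red at 1. The class II genes fill the upper left block and the class I and TAP genes the lower right one, and without ISO replicate 2 the pairs between the blocks run from -0.16 to 0.27.

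Of 15 listed pairs with a value, 12 passed a two-sided permutation test of r after Benjamini-Hochberg adjustment over the pairs, and 10 of them did so without the 2 libraries farthest from the median. H2-K1 followed B2m (r = 0.97, rho = 0.95, permutation p = 1e-05, the smallest that 100000 resamples can give, adjusted p = 7.5e-05) and r was 0.96 without the 2 farthest libraries. Cd74 followed H2-Ab1 (r = 0.85, rho = 0.82, adjusted p = 0.00015 by permutation), at r = 0.73 without the 2 farthest. Cd74 also followed Csf1r, a receptor of macrophages and monocytes (r = 0.66, rho = 0.73, adjusted p = 0.00408 by permutation), at 0.57 without the 2 farthest and 0.59 within batch 1. It did not follow Cd79a, a B cell receptor component (r = 0.03, adjusted p = 0.92 by permutation), nor Ciita (r = 0.14, adjusted p = 0.614 by permutation). Both were low, Cd79a at 1.55 CPM or below in all libraries and Ciita at 2.58 CPM or below outside ISO replicate 2. Counting noise at such levels can hide a correlation, so these pairs do not separate B cells from macrophages. H2-K1 followed Nlrc5 (r = 0.54, rho = 0.60, adjusted p = 0.0179 by permutation), at 0.45 without the 2 farthest. Of the 37 other pairs among the 10 genes, which were added after the data were seen, 10 passed.

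Tap1 followed the interferon-induced GTPase Igtp (r = 0.92, rho = 0.60, adjusted p = 0.00015 by permutation). Without ISO replicate 2 r was 0.80, and without the 2 farthest libraries, ISO replicates 1 and 2, it was 0.67.

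Among 13247 genes with a mean of at least 1 CPM, those most like each of 3 members in this measure were listed, with no test. Arl4c (r = 0.93), the macrophage and dendritic cell lectin Mgl2 (0.89), Fbp2 (0.88), Ift81 (0.87) and Il12rb2 (0.84) were nearest to Cd74. Ifitm3 (0.92), Dnmt3b (0.91), Ifi27 (0.89), the class I gene H2-T23 (0.89) and Rad52 (0.89) were nearest to H2-K1. Psmb8, a subunit of the immunoproteasome whose gene lies beside Tap1, was nearest to Tap1 (0.97, and 0.93 without ISO replicate 2). It was followed by Ifi35 (0.96), Rpl29 (0.96), Glmp (0.96) and the proteasome activator Psme2 (0.96). Without ISO replicate 2 these 4 were at 0.93, 0.81, 0.84 and 0.87. Rpl29 and Psme2 have near-identical copies elsewhere in the genome that can share their reads.

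Ratios within a library do not depend on the scaling, and they showed where the partner genes parted. These ratios were chosen after the counts were seen and carry no test. Tap1 to Tap2 was 3.68 in ISO replicate 2, 0.645 in ISO replicate 1, 0.374 to 0.636 in the 4 remaining ISO libraries, and 0.34 to 0.529 in the 12 PS libraries. H2-Aa to H2-Ab1, the chains of 1 heterodimer, was 2.3 in ISO replicate 1 and 1.8 in ISO replicate 2, against 1.18 to 1.33 in the remaining 4 of that group and 0.833 to 1.25 in PS. H2-D1 to H2-K1 was lowest in the same libraries, at 0.858 and 1.23, against 1.29 to 1.49 and 1.44 to 1.55. B2m to H2-K1 was highest in them, at 2.05 and 2.31, against 1.29 to 1.72 and 0.788 to 1.5. The transcripts of H2-Aa and B2m have a GC content of 46.5% and 41.2%, below that of H2-Ab1 (57.3%) and H2-K1 (54.3%), and the part of GC content in these ratios was not tested.

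**Figure D4:**
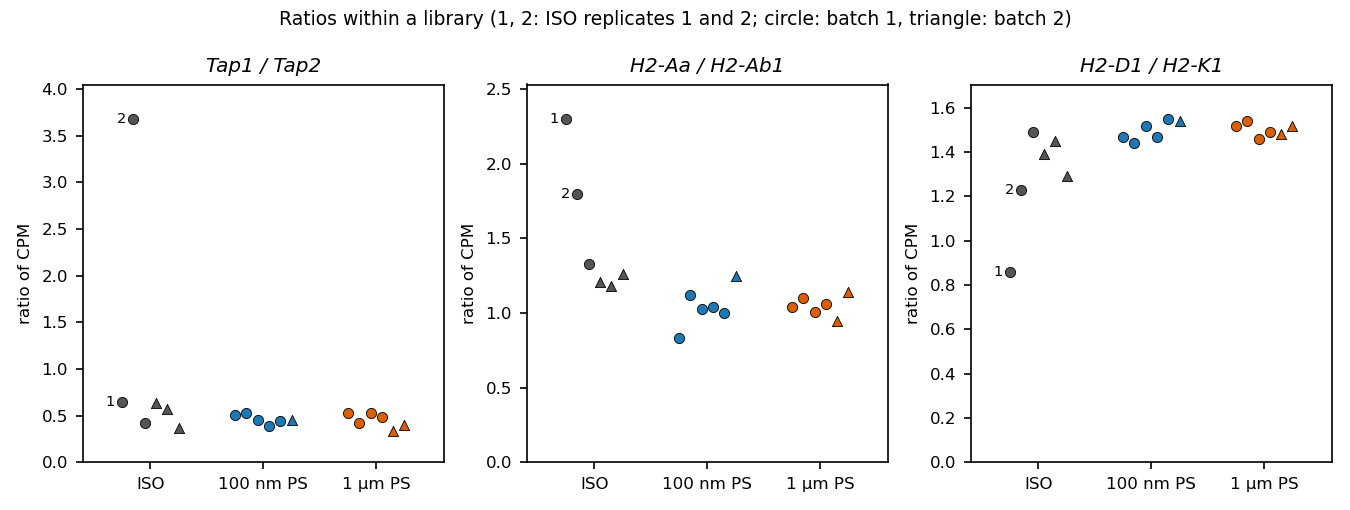
Ratio of CPM between partner genes in each of the 18 libraries, by group, on axes that start at 0, with circles for batch 1, triangles for batch 2 and ISO replicates 1 and 2 numbered. ISO replicate 2 stands at 3.68 for Tap1 to Tap2, and ISO replicates 1 and 2 hold the highest H2-Aa to H2-Ab1 and the lowest H2-D1 to H2-K1 ratios.

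None of the other genes of the class II route passed. Of 17 listed, 15 were tested, and 0 rose and 0 fell at 100 nm, at 1 µm and for the average. Of all genes tested, 9.57%, 7.39% and 17.7% were called in these comparisons. For the average 1 of the 15 had an unadjusted p under 0.05, against 34.1% of all genes tested, and the median log2 fold change was -0.04. The lysosomal protease Lgmn had the smallest p (log2 fold change 0.29, unadjusted p = 0.0286 by the quasi-likelihood test, adjusted p = 0.103). Ciita, the master regulator of class II, had a log2 fold change of -0.89 (adjusted p = 0.193) for the average, and 0.38 (adjusted p = 0.362) without ISO replicate 2, where it stood at 15.8 CPM, the rest of the group being at 0.621 to 2.09 CPM. The list summed to between 696 and 974 CPM in ISO, 737 and 972 CPM at 100 nm and 759 and 1080 CPM at 1 µm. Most of that sum was Ctsb and Ctsl, at means of 506 and 188 CPM in ISO.

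Of 22 other class I genes, all tested, 0 rose and 3 fell for the average, with 1 lower at 100 nm and 0 at 1 µm and a median of -0.09. Of all genes tested 10.9% were lower for the average. Canx, the chaperone that holds new heavy chains, ran from 162 through 224 to 312 CPM in ISO, from 137 through 160 to 179 CPM at 100 nm and from 126 through 161 to 197 CPM at 1 µm. It fell by 0.53 (SE 0.14, adjusted p = 0.0178), and by 0.59 without ISO replicate 2. Erap1, which trims peptides in the endoplasmic reticulum, fell by 0.54 (SE 0.15, adjusted p = 0.0203). Both were called in neither batch 2 alone (adjusted p = 0.406 and 0.371) nor under the GC correction (adjusted p = 0.142 and 0.191), nor without ISO replicate 1 (log2 fold change -0.39 and -0.34). Psme2 fell by 1.13 (SE 0.34, adjusted p = 0.0313), but its log2 fold change was -0.16 (adjusted p = 0.676) without ISO replicate 2, and it also missed the threshold without ISO replicate 4. For Nlrc5, the class I regulator, the value was -0.55 (adjusted p = 0.252), and 0.27 without that library.

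Among 33 genes of interferon signalling or induced by interferon, 1 rose and 6 fell for the average, 2 fell at 100 nm and 1 fell at 1 µm, with medians of -0.33, -0.34 and -0.33, against 6.8% of all genes higher and 10.9% lower for the average. Oasl2, an antiviral gene, was the 1 that rose (0.50, adjusted p = 0.049), and 26 of 32 alternatives ended that call, with 0.47 (adjusted p = 0.0757) without ISO replicate 2. For the GTPases Igtp, Irgm1 and Irgm2, which were among the 6 that fell, the call rested on ISO replicate 2. In that library and in the remaining 5 of its group they stood at 795 CPM and 16.9 to 24.6 CPM (Igtp), 551 CPM and 26.9 to 37.2 CPM (Irgm1), and 718 CPM and 24.2 to 39.6 CPM (Irgm2). For the average the log2 fold change was -2.68 (adjusted p = 0.0121) for Igtp, -1.90 (adjusted p = 0.0164) for Irgm1 and -1.97 (adjusted p = 0.019) for Irgm2. Without that library the values were 0.03, -0.05 and -0.01, and none of these 3 genes passed. The GTPase Iigp1, at 916 CPM in that library and at most 65 CPM elsewhere in ISO, had a log2 fold change of -2.49 (adjusted p = 0.00269) and still passed without it (-0.86, adjusted p = 0.0058). Irf1 did not pass (-0.11, adjusted p = 0.823).

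**Figure D5:**
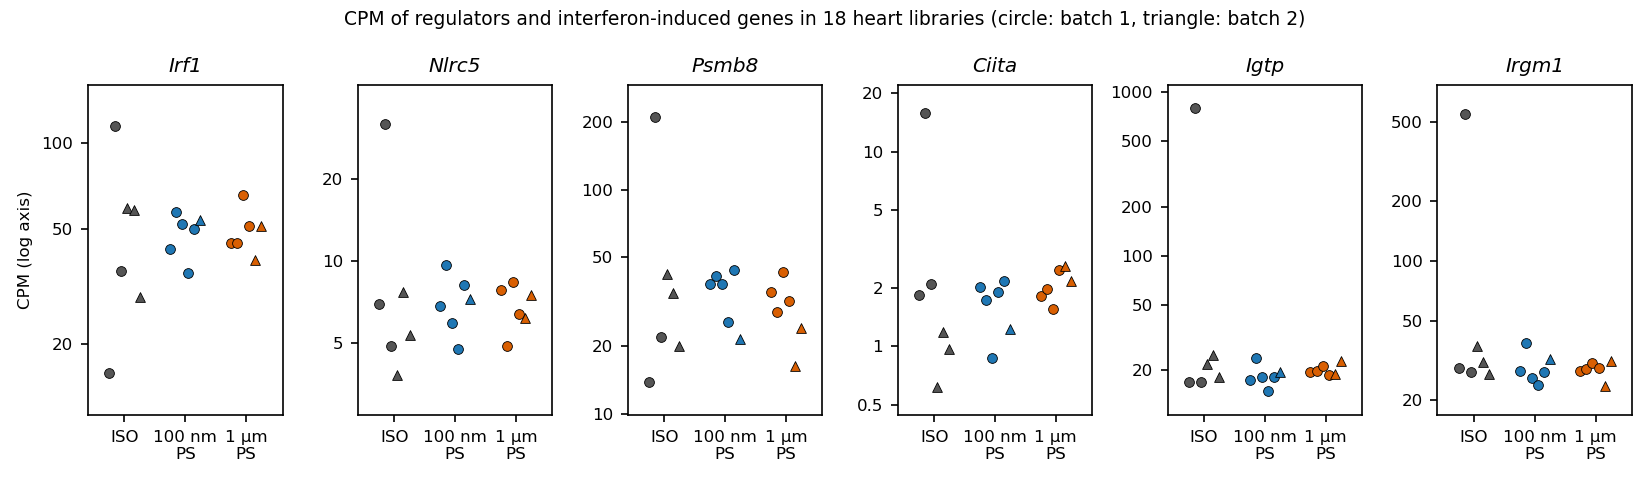
CPM on a log axis of Irf1, Nlrc5, Psmb8, Ciita, Igtp and Irgm1 in the 18 libraries by group, with circles for batch 1 and triangles for batch 2. ISO replicate 2 is the highest library for all 6 genes, at 795 CPM for Igtp and 551 CPM for Irgm1, while the remaining ISO libraries overlap the PS libraries for both.

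Among markers of the cells known for class II, 1 B cell marker passed, and 0 of the macrophage or dendritic cell markers did. Of 17 macrophage and monocyte markers 0 passed in any comparison with ISO, with 4 at an unadjusted p under 0.05 for the average. For the average, 17.7% of all genes tested were called and 34.1% had an unadjusted p under 0.05. They summed to between 418 and 1260 CPM in ISO, 462 and 818 CPM at 100 nm and 455 and 726 CPM at 1 µm. The top value was that of ISO replicate 2, in which Itgam and Ccr2 were at 0. Timd4, a marker of resident macrophages, had a log2 fold change of -1.11 (adjusted p = 0.0562), and -0.45 without ISO replicate 2. Of 4 dendritic cell markers tested out of 9 listed, 0 passed, and they summed to between 20.8 and 55.1 CPM in ISO and 22.6 and 42.3 CPM in PS. Most of that sum was Zbtb46, at a mean of 25.8 CPM in ISO, where each of the others averaged 4.08 CPM or less. Of 7 B cell markers tested out of 9, Cd79b was lower (-1.82, adjusted p = 0.0205), and its value was -0.38 (adjusted p = 0.515) without ISO replicate 2. B cell markers summed to between 13.3 and 51 CPM in ISO and 11.8 and 20.7 CPM in PS. Of 13 T and NK cell markers 3 had enough counts. Gzma was lower (-2.52, adjusted p = 0.00513), at -1.25 (adjusted p = 0.0567) without ISO replicate 2. The other 2 tested did not pass and had positive values (0.34 and 1.21). Of 5 neutrophil markers 3 were tested. S100a8 (-2.09, adjusted p = 0.0339) and S100a9 (-1.94, adjusted p = 0.0217) were lower at levels of 4.89 CPM or less, and the remaining 1 did not pass (0.07). Without ISO replicate 2 the values of S100a8 and S100a9 were -1.50 (adjusted p = 0.18) and -1.54 (adjusted p = 0.0907). Counts were low, at 238 for Gzma, 220 for S100a8 and 364 for S100a9 over the 18 libraries together. The part of these cells in the class II values was not tested.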

How the data were processed

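Poly(A) RNA of 18 mouse hearts, extracted with TRIzol, was sequenced as paired-end Illumina libraries by 2 providers, per the labels' protocols, and the provider was taken as the batch. Batch 1 was deposited as whole-number counts of reads for 46548 gene entries. Batch 2 was deposited as estimated counts for 57010 entries, in which 19.6% of the values above 0 have a decimal part and were rounded. The submitters' processing notes list read trimming by fastp, the aligner HISAT2 2.0.5, the programs featureCounts 1.5.0-p3 and StringTie 1.3.3b, DESeq2, and as genome GRCm39 (mm39), but not which made which table. Strand and multiple mapping settings are not given in the sources used here, which matters for H2-D1, not whole in 5 of 6 batch 2 libraries, and H2-K1, in 3.

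Genes were joined by Entrez and Ensembl pairs (22146) or by symbol (13414). The joined genes held 98.9% to 99.5% of counts in batch 1, and in batch 2 85.2% to 87.4% in ISO and 93.1% to 95.8% in PS libraries. Unnamed entries (215 in batch 1, 0.16% to 0.39% of counts) were left out. In R 4.3.3, edgeR 4.0.16 kept 14623 genes (filterByExpr, minimum count 10), scaled by TMM, and ran a robust quasi-likelihood test with group and batch on all libraries (14 residual degrees of freedom), and an adjusted p under 0.05 counts as called. It was tested on simulated counts that held no outlying libraries and no GC effects, so that test does not cover either of these. CPM use TMM factors, and log2 CPM a prior count of 2. Lengths and GC content are those of the longest GENCODE M21 transcript. With 6 mice a group, p-values measure the spread between these mice.

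The 10 genes, the gene lists and the tests were chosen with earlier results of these data known. Genes named from each list were drawn from up to 4 genes that passed against ISO (smallest p first), otherwise the 2 with the smallest p, and always Ciita, Nlrc5 and Irf1. Of the listed genes, 1 is not reported here by name, though it stays in the counts over lists and pairs. For likeness, the 5 genes of highest r were named. Oasl2, H2-Q6, Csf1r, Cd79a and Psmb8 are named for a listed pair or after their values were seen, as are the genes at 0 in ISO replicate 2. Alternatives were RLE and upper-quartile factors, no or a stricter filter, DESeq2 1.42.0, limma 3.58.1 voom, a fit of 2 groups at a time, no batch term, single batches, a replicate block, an adjusted p under 0.1, a GC correction, and leaving out libraries. The GC correction without ISO replicate 2 was added after the data were seen.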

Additional observations from a re-analysis of the deposited data

Results flagged for a closer look

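In 19 of 114 groups of 6 libraries (38 named genes in 3 groups), the highest or lowest library stood apart, with a gap to its neighbour above 0.625 of the group's range (Dixon's 95% limit). The limit is set to flag about 1 in 20 groups of independent, normally distributed values. The CPM here were not logged, the genes vary together, and many were named for their p against ISO. The number of flags therefore does not test chance. ISO replicate 2 was the library in 11 of the 19.

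Among the antigen presentation genes, 100 nm PS replicate 5 stood above its group for H2-Aa (60.5 CPM against 23.5 to 36.4 CPM, ratio 0.651), Cd74 (182 against 70.6 to 97.1 CPM, ratio 0.762) and H2-DMa (6.76 against 3.87 to 4.58 CPM, ratio 0.754). 1 µm PS replicate 6 stood above its group for Cd74 (201 against 83.9 to 123 CPM, ratio 0.666). ISO replicate 2 stood above its group for B2m (805 against 315 to 492 CPM, ratio 0.639) and Tap1 (162 against 13.7 to 31.3 CPM, ratio 0.881).

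Among genes of the other lists, ISO replicate 2 was the highest of its group for the interferon-induced GTPases Igtp (795 CPM, ratio 0.990), Irgm1 (551 CPM, ratio 0.980), Irgm2 (718 CPM, ratio 0.978) and Iigp1 (916 CPM, ratio 0.950). It was also the highest for the MHC regulators Ciita (15.8 CPM, ratio 0.903) and Nlrc5 (31.7 CPM, ratio 0.862). The same held for Cd79b (13.9 CPM, ratio 0.931), Gzma (6.87 CPM, ratio 0.815) and Timd4 (16.4 CPM, ratio 0.777). ISO replicate 1 was the highest for Erap1 (67.3 CPM, ratio 0.643) and Zbtb46 (41.8 CPM, ratio 0.631). Eng was lowest in 100 nm PS replicate 4 (344 CPM, ratio 0.638), and Col1a1 was highest in 1 µm PS replicate 1 (613 CPM, ratio 0.758).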

How the results depend on the processing

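For the average of both PS groups, where 1 of the 10 genes (Tap2) passed, the number was 2 with DESeq2, in batch 1 alone and at an adjusted p under 0.1, and H2-Aa was the gene added in each. It was 0 with limma voom, without the batch term, in batch 2 alone, with the replicate number as a block, without ISO replicates 1 and 2, and with GC correction without ISO replicate 2, and it ran from 1 to 2 when 1 library was left out. With the GC correction alone it was 1, and that gene was Tap1, not Tap2. At 100 nm, where 0 passed, DESeq2 gave 2, batch 1 alone 1 and an adjusted p under 0.1 gave 2, with 0 to 1 when 1 library was left out. At 1 µm, where 0 passed, DESeq2 gave 1 and an adjusted p under 0.1 gave 1, with 0 to 1 when 1 library was left out. The batch difference of the PS effect passed for 0 genes, and for 0 to 2 when 1 library was left out, the 2 being H2-D1 and Tap1 without ISO replicate 2. Between the particle sizes the number was 0 in every alternative run. The causes were not tested, and fits with fewer libraries have less power by construction.

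Among the other named genes, the average of both PS groups changed sign for Irgm2 with voom (0.00), in batch 2 alone (0.03) and without ISO replicates 1 and 2 (0.09), for Igtp without ISO replicate 2 (0.03), and for Irgm1 and Irgm2 with GC correction without ISO replicate 2 (0.13 and 0.13). When 1 library was left out, Igtp ran from -2.96 to 0.03. Sign changes of values never called are not counted here, and DESeq2 gave no adjusted p for Tap1, Ciita, Igtp, Irgm1 and Irgm2.

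Same-numbered libraries of different groups did not vary together (r of their deviations from -0.44 to 0.23), so the replicate block pairs libraries that share only a number. With it, Tap2 had 0.56 (adjusted p = 0.0981) for the average, and 467 of all genes were called where 2590 were without it. The same count was 709 without the batch term, 272 in batch 2 alone and 131 with GC correction without ISO replicate 2. At 100 nm and 1 µm, where 1399 and 1081 genes were called, it was 2607 and 2322 with DESeq2, 717 and 481 without a filter on low counts, 364 and 0 with 2 groups at a time, 7 and 11 in batch 2 alone, 1 and 2 with the GC correction, and 0 and 0 without the batch term or with the block. Leaving out 1 library gave from 170 to 2283 at 100 nm and from 265 to 2334 at 1 µm. With 14 residual degrees of freedom and 1 library at 100 nm in batch 2, values within batch 2 are the least precise, and H2-DMa, at 31 to 165 counts a library, is the least deeply counted of the 10 genes.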
